A study of Mus musculus with 2 samples.

Results

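The small leucine-rich proteoglycans studied here were 10 genes (Dcn, Lum, Bgn, Fmod, Ogn, Kera, Prelp, Omd, Aspn and Chad), picked by name and each matched to 1 of the 32285 genes of the single-cell count files. The series holds 2 libraries of dissociated RPE, choroid and sclera, 1 from eyes injected under the retina with PBS (control) and 1 from eyes injected with 1 µl of doxorubicin (Dox) at 100 ng/µl, a DNA-damaging drug used to bring retinal pigment epithelium (RPE) cells into senescence. All mice were C57BL/6J and 3 months old, and the labels name no further allele or agent. Each library pooled 10 eyes of 5 mice taken 7 days after injection, and the injected fluid reached only a part of the RPE of an eye. There was thus 1 library per condition and no replicate check of any difference between them: no p-value was computed, and every interval given is an exact 95% interval that covers the counting of molecules only.

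Small leucine-rich proteoglycans are secreted matrix proteins built from leucine-rich repeats, and several carry chondroitin, dermatan or keratan sulfate chains. They bind collagen fibrils and set their width and spacing, and some bind growth factors such as TGF-beta. In the eye they are best known from the cornea and the sclera, where keratan sulfate members are needed for transparency and for the strength of the wall. Dcn (decorin), Bgn (biglycan) and Aspn (asporin) form class I. Lum (lumican), Fmod (fibromodulin), Kera (keratocan), Prelp and Omd (osteomodulin) form class II. Ogn (osteoglycin, or mimecan) belongs to class III and Chad (chondroadherin) to class IV.

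The genes lie in runs of neighbours in the mouse genome. On GRCm38 (mm10), in the GENCODE annotation, Dcn (chromosome 10, 97479609 to 97518143, plus strand), Lum and Kera stand in a row within 203 kb that ends with Epyc. Aspn (chromosome 13, 49544443 to 49567565), Omd (49582462 to 49592822) and Ogn (49608046 to 49624501), all on the plus strand, follow Ecm2 within 120 kb. Prelp (minus strand) and Fmod (plus strand, 134037254 to 134048277) lie next to Optc within 151 kb of chromosome 1, whereas Bgn is on the X chromosome and Chad on chromosome 11. RefSeq promoter sequences (GRCm38.p6) were at hand for 8 of the 10 genes, Dcn and Lum being named only. The 200 bases before the start of 4 genes are shown. These genes were picked after their values were seen, because they stand out in cell groups described below. Fmod and Omd do so in fibroblasts gated on Tnmd (tenomodulin) or Chad, and Ogn and Aspn in smooth muscle-like cells. RefSeq puts the start of Ogn a little before the GENCODE start given above, and the window follows RefSeq. All 4 lie on the plus strand, at chr1:134037054-134037253, chr13:49582262-49582461, chr13:49607815-49608014 and chr13:49544243-49544442. Capitals mark each CANNTG, the E-box letters that basic helix-loop-helix factors such as scleraxis can bind.
Fmod: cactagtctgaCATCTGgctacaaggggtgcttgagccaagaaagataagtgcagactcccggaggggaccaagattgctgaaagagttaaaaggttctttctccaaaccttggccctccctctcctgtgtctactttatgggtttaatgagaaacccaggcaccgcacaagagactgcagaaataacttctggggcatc
Omd: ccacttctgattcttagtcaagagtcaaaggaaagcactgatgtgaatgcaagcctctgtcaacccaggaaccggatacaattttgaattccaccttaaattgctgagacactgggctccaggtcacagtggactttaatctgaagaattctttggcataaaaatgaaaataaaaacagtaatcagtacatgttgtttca
Ogn: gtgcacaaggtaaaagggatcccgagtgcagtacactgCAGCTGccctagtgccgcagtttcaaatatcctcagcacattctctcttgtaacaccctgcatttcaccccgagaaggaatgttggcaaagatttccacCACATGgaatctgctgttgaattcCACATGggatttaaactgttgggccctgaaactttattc
Aspn: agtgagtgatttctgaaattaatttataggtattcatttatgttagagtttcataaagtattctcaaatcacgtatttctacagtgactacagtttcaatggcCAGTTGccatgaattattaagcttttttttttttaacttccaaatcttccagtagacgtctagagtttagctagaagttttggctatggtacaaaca
Fmod held 1 E-box, Ogn 3, Aspn 1 and Omd none, searched on both strands (the motif is its own reverse complement), against 58.2% of 32841 promoters of the same length that held at least 1. A CArG box, the serum response factor motif of smooth muscle genes, was found in none of the 8 promoters and in 1.18% of all. Aspn and Chad held the letters TATAAA on either strand, as did 9.96% of all promoters. Such matches describe letters in a window and were not tested for use by any factor.

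After filtering, 20180 control and 15426 Dox cells remained, with 115611226 and 99273166 UMIs (unique molecular identifiers, 1 per captured RNA molecule) and a median of 4495 and 4995 UMIs a cell. Both libraries listed 441 barcodes in common, and 437 and 431 of these cells were kept. Levels are UMIs per 1000000 UMIs (CPM), both summed over the cells of a type. As each molecule is counted once from its 5′ end, a level is not scaled by transcript length.

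Fibroblasts were cells with at least 5 Dcn UMIs and at least 2000 Dcn CPM that passed no gate of another type. They numbered 10818 (53.6%) in control and 8208 (53.2%) in Dox, and 94.7% and 94.8% of them also carried fibroblast markers other than the proteoglycans. The samples are labelled as RPE cells, but RPE-like cells by RPE markers were 5.48% and 7.95% of cells. The RPE gate was the strictest, at 250 marker UMIs and 50000 CPM. Other types needed 5 marker UMIs and 2000 to 10000 CPM. This share thus depends on the gate, and RPE cells with fewer marker UMIs are not in it. A further 836 and 289 cells passed the Dcn gate and that of another type, and were left out. Since Dcn chose the fibroblasts, its level in them against other cells is no finding. In control 585 fibroblasts lay at 2000 to 2500 Dcn CPM and 872 cells lay just below the gate at 1500 to 2000, and in Dox these were 515 and 763 cells.

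Dcn was the most counted proteoglycan of the fibroblasts by a wide margin, at 10799 CPM in control and 9746 in Dox. It made up 70.2% and 67.5% of the UMIs of the 10 genes. Lum followed at 2072 and 1950 CPM, and Bgn at 1799 and 1969 CPM. Lum stood above Bgn in the control library and just below it in the Dox library, so the order of these neighbours was not the same in both. Prelp, a proteoglycan with a basic amino-terminal end that binds heparan sulfate, was counted at 273 and 286 CPM, and Ogn at 190 and 208 CPM. Chad, a cartilage protein that binds integrins, came next with 117 and 133 CPM, ahead of Fmod with 89.1 and 99.5 CPM. Omd lay at 19.3 and 20.3 CPM, and Aspn at 18.0 (16.9 to 19.1) and 24.3 (22.9 to 25.7) CPM. The control intervals of Omd and Aspn (18.2 to 20.5 for Omd) overlapped, so their order there was within counting error. Kera was the rarest, at 1.84 and 0.204 CPM.

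**Figure D1:**
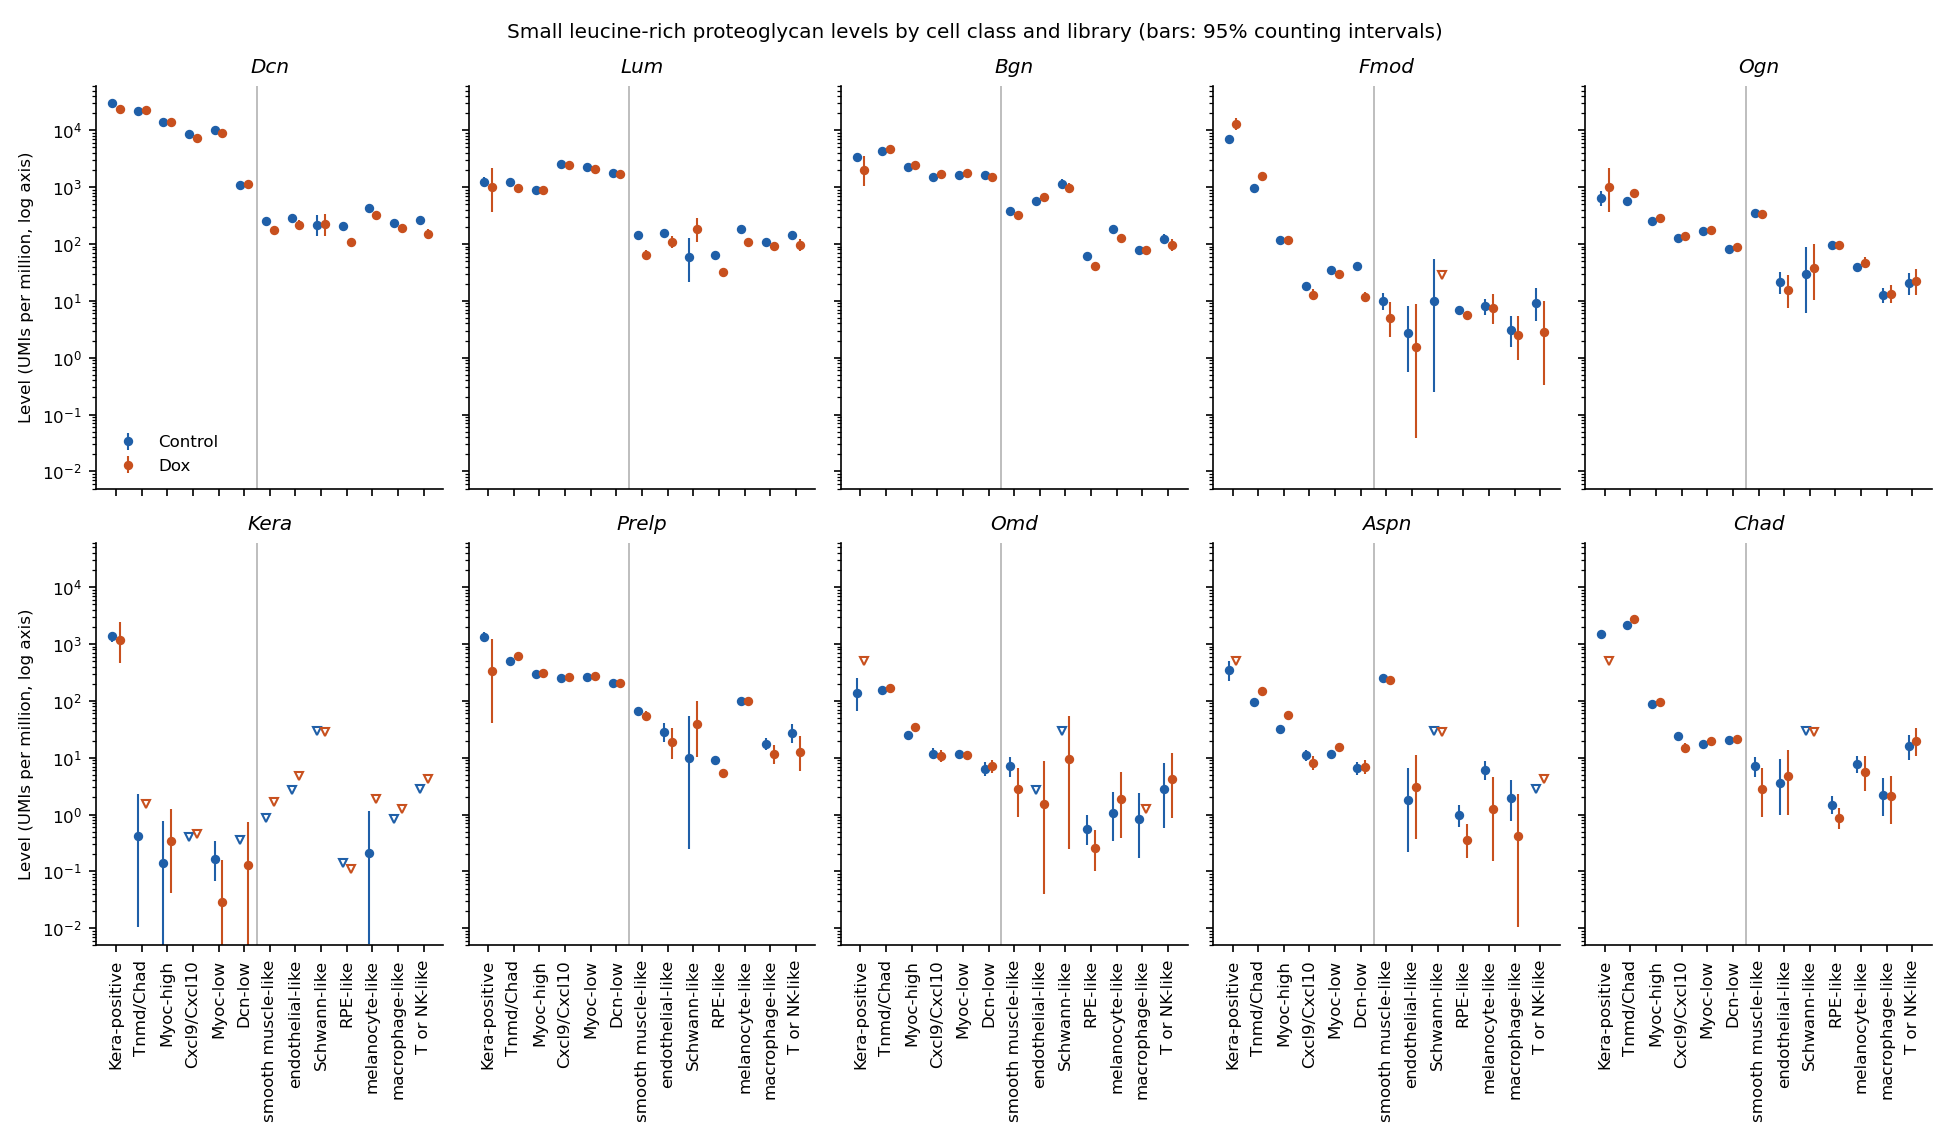
Level of each proteoglycan gene (CPM on a log axis) in each cell class of the control (blue) and Dox (orange) library, with 95% counting intervals as bars. A vertical line separates the fibroblast classes from the other types, and open triangles mark the limit of 3 counts where no UMI was counted. Fmod is higher in Tnmd/Chad cells (963 and 1557) than in Myoc-low cells, and Aspn lies at 255 and 228 in smooth muscle-like cells. Chad is high in Tnmd/Chad cells because it is a gate gene there.

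The genes differed in their spread over cells, which depends in part on their level. The median fibroblast of the control library had 8204 Dcn CPM, 1786 Lum CPM, 1333 Bgn CPM and 213 Prelp CPM. For Ogn, Fmod, Omd, Aspn, Chad and Kera the median fibroblast had none. At their lower levels this does not show that few cells make them. Thinning drew 2000 UMIs from each cell, and cells with fewer UMIs were left out of all thinned values. With thinning, Lum was seen in 87.4% and 86.9% of fibroblasts and Bgn in 89.3% and 91.3%. Fmod was seen in 5.64% and 5.46%, and Chad in 5.60% and 5.96% (without thinning, 11.2% and 11.4% for Fmod, and 9.50% and 10.0% for Chad). The 10 highest fibroblasts held 16.0% and 24.6% of the Fmod UMIs, compared with 0.907% and 1.27% of the Dcn UMIs. For Ogn they held 2.14% and 2.92%, against 1.28% and 2.07% for Prelp.

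Fmod, Omd and Aspn were much higher in a small fibroblast group than in other fibroblasts. The group was gated on Tnmd (tenomodulin, a tendon membrane protein) or Chad. It held 287 control and 217 Dox cells, 2.65% (2.36 to 2.97) and 2.64% (2.31 to 3.01) of fibroblasts. Chad by itself passed in 216 and 165 of these cells and Tnmd by itself in 111 and 81, and 227 and 160 had a Tnmd UMI. Chad is thus a gate gene here and its level (2192 and 2708 CPM) is no finding. All 9 fibroblast markers other than proteoglycans were counted in the group, but so were they in smooth muscle-like cells. Their levels were mixed. Pdgfra was at 104 and 88.6 CPM against 221 and 195 CPM in Myoc-low fibroblasts, and Col1a1 at 1928 and 2306 CPM against 536 and 552 CPM. Its cells were deep, with a median of 8119 and 8887 UMIs against 4889.5 and 5542 in all fibroblasts.

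Fmod, which binds collagen and is a tendon gene, reached 963 and 1557 CPM in the Tnmd/Chad cells of control and Dox. In all other fibroblasts it lay at 52.2 and 40.2 CPM, so it was 18.5-fold and 38.8-fold higher (log2 4.21, 4.13 to 4.29, and 5.28, 5.19 to 5.36). Omd, a keratan sulfate proteoglycan of bone and tendon, was at 156 and 171 CPM against 13.5 and 14.2 CPM, 11.5-fold and 12.0-fold higher. Aspn was at 97.0 and 147 CPM against 14.7 and 19.3 CPM, 6.60-fold and 7.61-fold higher. The differences of these 3 genes were far wider than their counting intervals in both libraries.

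Ogn, at 563 and 779 CPM, was 3.23-fold and 4.22-fold higher than in other fibroblasts. Bgn, at 4288 and 4772 CPM, was 2.53-fold and 2.57-fold higher. Prelp was higher by 1.89-fold and 2.28-fold, which passed 2-fold in the Dox library only. Dcn, which gated all fibroblasts, was 2.14-fold and 2.43-fold higher. Lum went the other way at 1249 and 982 CPM, 0.593 and 0.493 times its level in other fibroblasts. Kera gave 1 and 0 UMIs in these cells.

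Of the 10 genes, 7 were at least 2-fold higher in both libraries and 0 were at least 2-fold lower, but Dcn and Chad among the 7 had chosen cells. Of the 7 genes that chose no cells, 5 were at least 2-fold higher (Bgn, Fmod, Ogn, Omd and Aspn). Over all 14078 genes tested, 2.93% were higher and 5.55% lower by the same rule. With the gate set on Tnmd alone, 111 and 81 cells passed. Kera-positive and Cxcl9/Cxcl10 cells were set aside first and counted with the other fibroblasts. Of the proteoglycans, Dcn and Kera thus still had a part in this gate. Chad was then 30.6-fold and 36.1-fold higher in the cells that passed. Fmod was 26.6-fold and 51.4-fold higher, Omd 15.5-fold and 16.0-fold, and Prelp 2.44-fold and 3.17-fold. Lum was at 0.767 and 0.607 times its level elsewhere, so it was not 2-fold lower with this gate in either library.

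**Figure D2:**
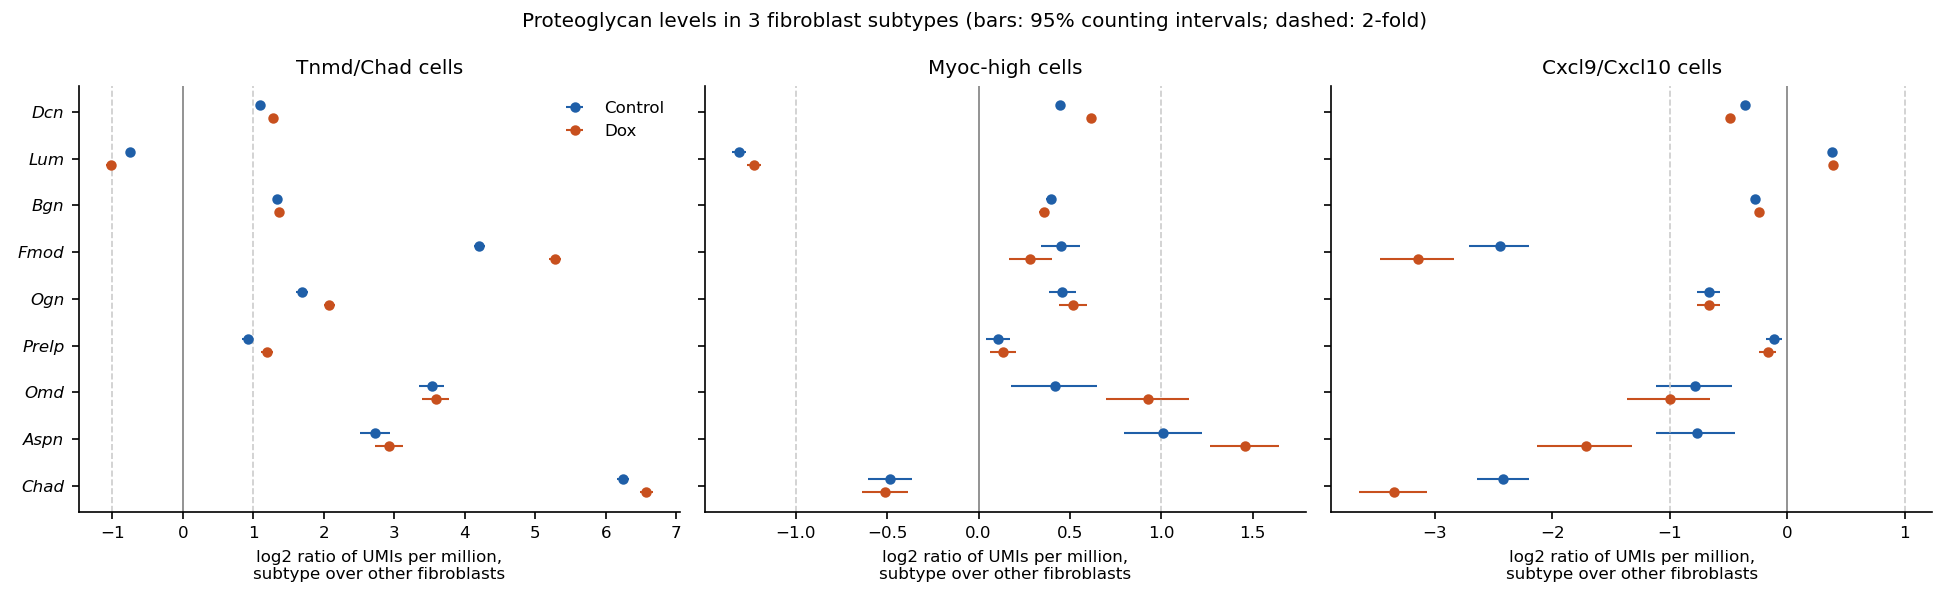
Log2 ratio of CPM between 3 fibroblast subtypes and all other fibroblasts for 9 of the genes (Kera is not drawn), in control (blue) and Dox (orange), with 95% counting intervals. Dashed lines mark 2-fold. In Tnmd/Chad cells Fmod (18.5-fold and 38.8-fold), Omd, Aspn and the gate gene Chad lie far to the right, and Lum lies to the left in both Tnmd/Chad and Myoc-high cells.

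The same cells carried genes of tendon and of collagen fibrils. Of 8 tested genes of tendon and cartilage type, 7 were at least 2-fold higher in both libraries, the gate gene Tnmd among them, where 2.93% of all genes were. Thbs4, a tendon matrix protein, lay at 1444 and 1325 CPM against 60.5 and 55.1 CPM in Myoc-low fibroblasts. Sox9, a cartilage transcription factor, was the lower one (5.55% of all genes were lower), at 128 and 143 CPM against 369 and 357 CPM. Of 18 genes of fibril partners, 9 were higher and 0 lower against the same shares, with Sparc, a collagen-binding matrix protein, at 6894 and 8748 CPM against 1822 and 1958 CPM. Of 22 tested enzymes that build or sulfate the side chains, only B3gnt7 was higher and only Chst15 lower, near the 2.93% and 5.55% of all genes. B3gnt7 was at 1.68 and 2.09 CPM and Chst15 at 0.840 and 2.61 CPM in Tnmd/Chad cells, so both rest on very few UMIs.

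Myoc (myocilin) is a secreted glycoprotein of ocular connective tissue. Myoc-high fibroblasts had at least 5 UMIs and 1000 CPM of Myoc and lay outside the other gates, 1076 control and 844 Dox cells. Of the 295 and 218 fibroblasts that passed the Tnmd/Chad gate, 259 and 189 also passed the Myoc gate. Tnmd/Chad cells had 14030 and 16133 Myoc CPM, above the 7028 and 7483 CPM of Myoc-high cells. They count among the other fibroblasts that Myoc-high cells are compared with. Lum was at 901 and 892 CPM in Myoc-high cells, 0.403 and 0.427 times its level in other fibroblasts. With thinning, 53.3% and 53.7% of Myoc-high cells had a Lum UMI, compared with 91.8% and 90.9% of Myoc-low cells. Lum was the 1 gene of 10 at least 2-fold lower in both libraries, where 2.95% of all genes were. Aspn was the 1 gene of 10 at least 2-fold higher, at 32.3 and 55.3 CPM or 2.01-fold and 2.74-fold, where 1.39% of all genes were. Leaving out the 10 Myoc-high cells with most Aspn UMIs, but none of the cells compared with, gave log2 0.41 and 0.74. Such a removal on 1 side can only lower the ratio, so it does not decide whether 2-fold was passed. The 10 highest cells held 34.9% and 40.4% of the Aspn UMIs of Myoc-high cells, and 31.4% and 52.8% of those of Myoc-low cells. Leaving out the 441 shared barcodes put the control value just under 2-fold (log2 0.99). Dcn was 1.36-fold and 1.53-fold, Bgn 1.32-fold and 1.28-fold, and Ogn 1.37-fold and 1.43-fold higher.

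Cxcl9/Cxcl10 fibroblasts, which carry mRNA for interferon-induced chemokines, numbered 1397 and 1154, 12.9% (12.3 to 13.6) and 14.1% (13.3 to 14.8) of fibroblasts. Lum was 2601 and 2457 CPM in them, 1.30-fold and 1.31-fold higher than in other fibroblasts, the highest Lum level of the subtypes with over 100 cells. Dcn, at 8667 and 7244 CPM, was at 0.781 and 0.714 times its level elsewhere, and Ogn was at 0.629 and 0.630 times. Of the 10 genes 0 were at least 2-fold higher (0.433% of all genes) and 3 were at least 2-fold lower (1.04% of all genes), namely Fmod, Chad and Kera. The cells they were compared with include the Tnmd/Chad and Kera-positive cells, which were chosen for 2 of these genes. Against Myoc-low fibroblasts alone, Fmod was at 18.2 and 12.8 CPM against 34.8 and 30.2, which is less than 2-fold lower in control. Chad was at 24.3 and 14.9 CPM against 17.4 and 19.6 in Myoc-low cells, but 57.0% and 55.0% of the Chad UMIs of Cxcl9/Cxcl10 cells lay in 10 cells, so no direction is read from it. Kera had no UMI in Cxcl9/Cxcl10 cells of either library, and only 10 UMIs in all Dox fibroblasts.

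Kera, the keratan sulfate proteoglycan of the corneal stroma, was counted in few cells. The control library held 112 Kera UMIs in 25 cells and the Dox library 13 UMIs in 7 cells, and 22 and 5 of these cells were fibroblasts. At least 2 Kera UMIs were found in 13 control fibroblasts (0.120%, 0.0640 to 0.205) and 2 Dox fibroblasts (0.0244%, 0.00295 to 0.0880). As a group chosen on Kera they are described and not compared. Fmod was counted in 11 of the 13 and 2 of the 2, with 518 UMIs (7081 CPM) and 78 UMIs (13009 CPM), and the highest cell had 133 Fmod UMIs. Of the 13 control cells, 5 also passed the Tnmd/Chad gate. Without these cells the Dox over control ratio of Fmod in fibroblasts went from log2 0.16 to 0.28, and that of Kera from -3.17 to -1.32.

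Cells with fibroblast markers were also sorted by their own Dcn level, and the other genes followed it to different degrees. In the control library Lum was 1455 CPM in cells under 500 Dcn CPM and 1864 CPM in cells above 32000, and in the Dox library 1382 and 1097 CPM. Bgn was 1652 and 3161 CPM at these ends in control, and 1502 and 4068 CPM in Dox. Chad was 18.0 and 1327 CPM in control and 30.4 and 1869 CPM in Dox. Ogn was 55.1 and 556 CPM, and 62.8 and 773 CPM. From end to end the steep genes were Chad, Fmod, Omd, Aspn and Ogn, while Lum was highest in between, at 2158 and 2129 CPM in cells of 4000 to 8000 Dcn CPM. Control Fmod did not rise steadily, at 30.3 CPM in the lowest bin, 15.3 at 2000 to 4000 and 1127 in the highest. Tnmd/Chad cells had a median of 19684 and 20550 Dcn CPM, so many of them lie in the upper bins. Whether these genes rise with Dcn within a subtype was not tested. The cells above 32000 Dcn CPM were 229 and 113 in number. The low ends of the steep genes rest on few UMIs, for Chad on 29 in control (12.0 to 25.8 CPM) and 43 in Dox (22.0 to 40.9 CPM).

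**Figure D3:**
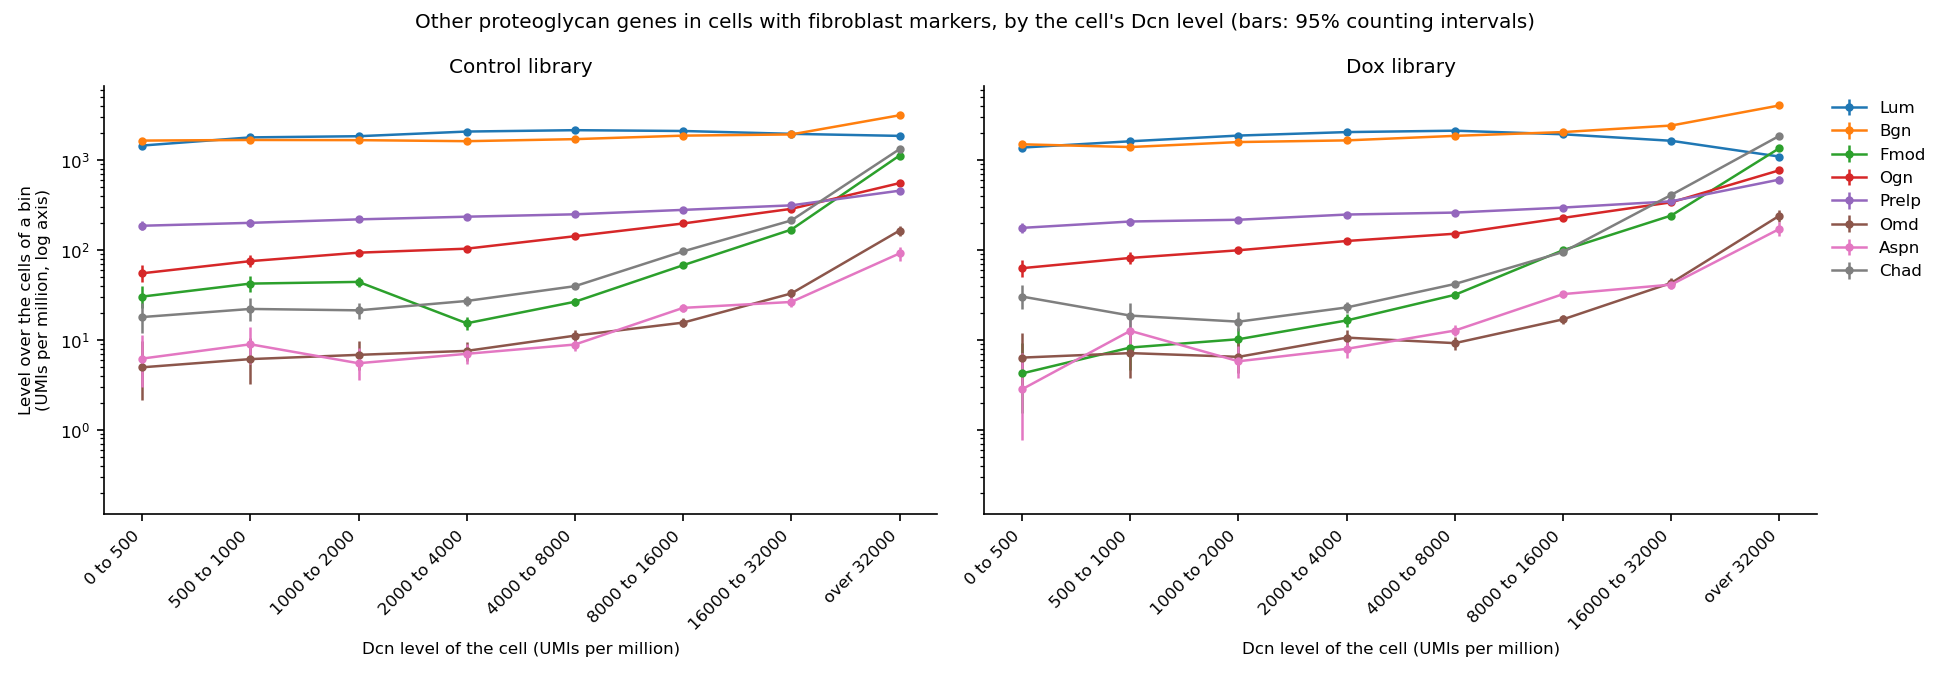
Level of 8 proteoglycan genes (CPM, log axis) in cells with fibroblast markers, binned by their own Dcn level (CPM) in the control (left) and Dox (right) library. Each colour is 1 gene, and bars are 95% counting intervals. Dcn, which makes the bins, and Kera are not drawn. Chad goes from 18.0 to 1327 in control and Lum from 1455 to 1864.

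Cells with fibroblast markers that missed the Dcn gate (Dcn-low) numbered 1967 and 1650. Dcn was chosen to be low in them, at 1077 and 1115 CPM. Lum was at 1755 and 1719 CPM (2072 and 1950 in fibroblasts) and Bgn at 1663 and 1525 CPM (1799 and 1969 in fibroblasts). Each of these genes gave more of their proteoglycan UMIs (36.1% and 36.6% for Lum, 34.2% and 32.4% for Bgn) than Dcn did (22.2% and 23.7%). As the gate kept Dcn low, these shares are no finding. Prelp was at 208 and 207 CPM, close to its fibroblast level of 273 and 286 CPM. Ogn was at 82.3 and 88.8 CPM, against 190 and 208 CPM in fibroblasts.

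Transcripts of these abundant genes were also counted in cells not known to make them. T or NK-like cells (259 and 160), taken as the background of free RNA, had 609 and 404 CPM of the 10 genes together, 3.96% (3.66 to 4.27) and 2.80% (2.49 to 3.14) of the fibroblast level. Dcn was 267 and 149 CPM there, or 1.10 and 0.669 UMIs per cell, a value that the removal of cells passing the Dcn gate keeps low. Counting also the cells that passed both the Dcn and the T or NK gate brought the background to 17.0% and 15.7%. Lum was 143 and 97.5 CPM, Bgn 124 and 96.1 CPM, Prelp 27.0 and 12.5 CPM and Ogn 20.5 and 22.3 CPM in T or NK-like cells. Chad had 17 and 14 UMIs in them (15.8 and 19.5 CPM), more in CPM than macrophage-like (2.22 and 2.08) or endothelial-like cells (3.66 and 4.67). A Chad level below this background is thus not read as a trait of another type. Aspn had none in either library, which allows a level of up to 2.80 and 4.18 CPM and a share of cells with an Aspn UMI of up to 1.16% of 259 and 1.88% of 160, which is no limit on the cells that make it.

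Smooth muscle-like cells (728 and 349) carried Aspn and Ogn well above this background. Aspn was counted at 255 and 228 CPM in control and Dox, at least 91.1-fold and 54.6-fold above the T or NK-like limit of 3 counts per library. This was 14.1-fold (log2 3.82, 3.69 to 3.95) and 9.38-fold (3.23, 3.06 to 3.39) its level in all fibroblasts. Thinned to 2000 UMIs, 34.9% and 34.1% of smooth muscle-like cells and 0 T or NK-like cells had an Aspn UMI (unthinned, 53.3% and 55.6%, at a median of 4618 and 5173 UMIs against 3662 and 3926). Ogn was 356 and 341 CPM, 17.4-fold (log2 4.12, 3.51 to 4.80) and 15.3-fold (3.94, 3.22 to 4.75) above T or NK-like cells, and 1.88-fold and 1.64-fold above its fibroblast level of 190 and 208 CPM.

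Relative to Lum, smooth muscle-like cells had more Ogn than fibroblasts or T or NK-like cells. Per 100 Lum UMIs they had 247 and 523 Ogn UMIs, where fibroblasts had 9.16 and 10.7 and T or NK-like cells 14.4 and 22.9. Of 8 tested proteoglycan genes, 4 were at least 2-fold higher than in T or NK-like cells in both libraries (Aspn, Ogn, Bgn at 3.11-fold and 3.32-fold, and Prelp at 2.42-fold and 4.39-fold), where 19.7% of all tested genes were. Aspn, Ogn and Prelp reached the 50 UMIs needed for testing only through the smooth muscle-like cells. In T or NK-like cells they had 0 and 0, 22 and 16, and 29 and 9 UMIs, so nothing is read from this count. Chad was the 1 gene at least 2-fold lower (12.5% of all tested genes were), from 24 and 5 UMIs in smooth muscle-like cells and 17 and 14 in T or NK-like cells. All 9 fibroblast markers were counted in smooth muscle-like cells, summed at 2468 and 1871 CPM, in T or NK-like cells at 899 and 699 CPM and in fibroblasts at 13446 and 13300 CPM. Their part in the levels of these genes was not tested.

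**Figure D4:**
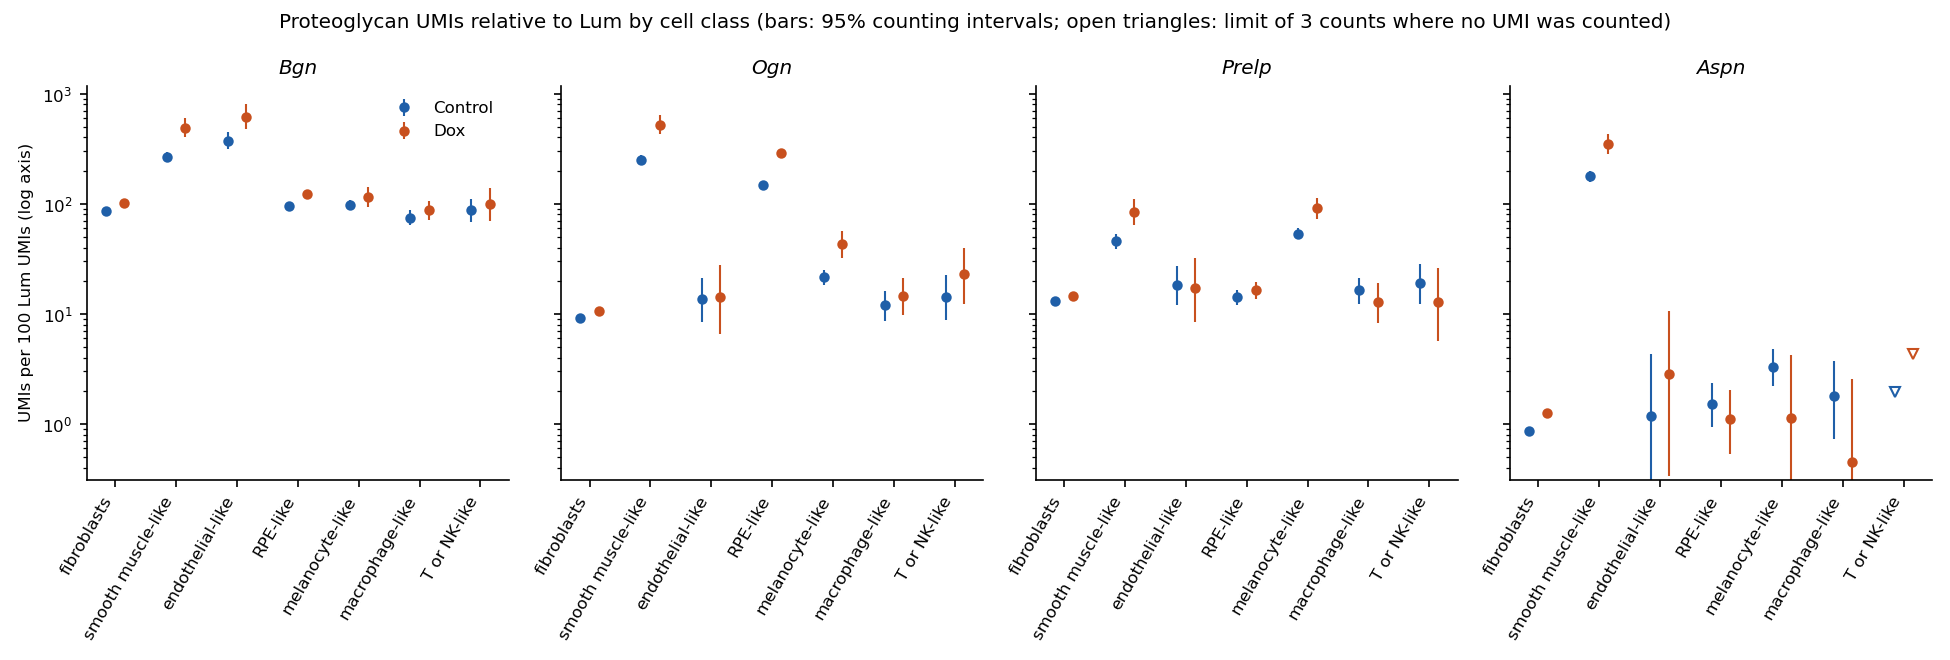
UMIs of 4 proteoglycan genes per 100 Lum UMIs (log axis) in fibroblasts and 6 other cell types of control (blue) and Dox (orange), with 95% counting intervals. Open triangles mark the limit of 3 counts where no UMI was counted, and the few Schwann-like cells are not drawn. Ogn stands at 9.16 and 10.7 in fibroblasts, at 148 and 288 in RPE-like cells and at 247 and 523 in smooth muscle-like cells, and Bgn stands highest in endothelial-like cells (374 and 617).

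Bgn was above the background in endothelial-like and Schwann-like cells, as in smooth muscle-like cells, and below its fibroblast level of 1799 and 1969 CPM. In endothelial-like cells (283 and 149) it was 578 and 673 CPM, 4.66-fold and 7.0-fold above T or NK-like cells, and the 1 gene of 5 at least 2-fold higher in both libraries, a share near the 18.3% of all tested genes. After thinning 55.3% and 52.1% of these cells had a Bgn UMI, against 12.1% and 11.0% of T or NK-like cells (unthinned, 66.1% and 59.7% against 21.2% and 15.6%, at median depths of 3501 and 4015 UMIs against 3662 and 3926). The Schwann-like cells were few (36 and 30). Bgn was 1148 and 982 CPM in them from 116 and 102 UMIs, 9.26-fold and 10.2-fold above T or NK-like cells, and the 1 gene of 3 that passed (12.9% of all tested genes did). Fibroblast markers summed to 3125 and 2654 CPM in endothelial-like and 3315 and 4093 CPM in Schwann-like cells, and their part was not tested. In macrophage-like cells 0 of 5 tested genes was at least 2-fold above T or NK-like cells in both libraries, where 11.5% of all tested genes were.

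RPE-like cells (1106 and 1227) differed from the background in Ogn. They had 94.2 Ogn CPM in each library, 4.60-fold (log2 2.20, 1.60 to 2.88) and 4.23-fold (2.08, 1.38 to 2.89) above T or NK-like cells. Per cell this was 1.84 and 2.11 Ogn UMIs, against 4.08 and 2.46 Dcn UMIs. After thinning 17.3% and 18.4% of RPE-like cells had an Ogn UMI against 3.23% and 3.23% of T or NK-like cells (unthinned, 71.5% and 79.2% against 5.79% and 8.75%, at median depths of 18814.5 and 21949 UMIs against 3662 and 3926). Per 100 Lum UMIs they had 148 and 288 Ogn UMIs. Of 7 tested genes, 4 (Lum, Bgn, Prelp and Chad) were at least 2-fold lower in CPM than in T or NK-like cells, where 22.5% of all tested genes were. RPE-like cells were much deeper, however, and their gate of 250 marker UMIs kept shallow cells out. Lum gave 1369 and 900 UMIs in 1106 and 1227 RPE-like cells, and 153 and 70 UMIs in 259 and 160 T or NK-like cells. Per cell Lum, Bgn and Prelp were thus not lower in RPE-like cells, and only Chad was. Ogn was the 1 gene at least 2-fold higher, where 20.1% of all tested genes were, so this count is not above the background. With 22 and 16 UMIs in T or NK-like cells, Ogn reached the 50 UMIs needed for testing only through RPE-like cells.

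Prelp was above the background in melanocyte-like cells (1951 and 750). It was 98.8 and 100.0 CPM there, 3.66-fold (log2 1.87, 1.33 to 2.46) and 7.97-fold (3.00, 2.03 to 4.15) above T or NK-like cells, whose values rest on 29 and 9 UMIs. Prelp gave 469 and 159 UMIs in the shallower melanocyte-like cells, and the 29 and 9 came from 259 and 160 T or NK-like cells. Per cell it was thus also higher, but by less than in CPM. Col1a1, a fibroblast marker, was at 70.4 and 28.3 CPM against 32.6 and 29.3 CPM in T or NK-like cells. The part of free RNA was not tested. Prelp was the 1 gene of 7 at least 2-fold higher in both libraries and Chad the 1 gene at least 2-fold lower, where 23.7% and 10.7% of all tested genes were. Prelp reached the 50 UMIs needed for testing only through melanocyte-like cells, so nothing is read from its count. After thinning 16.1% and 20.6% of melanocyte-like cells had a Prelp UMI against 2.42% and 2.58% of T or NK-like cells. Melanocyte-like cells were shallow (median 1534 and 1219.5 UMIs), so most of them had under 2000 UMIs and were left out. These shares thus describe only the deeper melanocyte-like cells. Per 100 Lum UMIs they had 53.5 and 90.9 Prelp UMIs, compared with 13.2 and 14.7 in fibroblasts and 45.4 and 84.5 in smooth muscle-like cells.

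Between the libraries, the fibroblast levels of these genes lay close together. Summed, the 10 genes gave 15377 and 14437 CPM in control and Dox, which is -0.09 (-0.10 to -0.09) as a log2 Dox over control ratio. On this scale Dcn was at -0.15 and Lum at -0.09, whereas Bgn was at 0.13, Ogn at 0.13 and Prelp at 0.07. Dcn, which chose the fibroblasts, gave 70.2% and 67.5% of the summed UMIs, so the sum mostly follows Dcn. Fmod was at 0.16 (0.10 to 0.22), Chad at 0.19 (0.14 to 0.24) and Aspn at 0.43 (0.31 to 0.55), and the interval of Omd (0.07, -0.05 to 0.20) included 0. In control and Dox, 10 fibroblasts held 16.0% and 24.6% of the Fmod UMIs, 10.5% and 17.0% of Chad and 19.0% and 27.6% of Aspn. These 3 ratios thus lean on few cells, which their counting intervals do not cover. Only Kera passed 1.5-fold, with 108 and 10 UMIs. Of the 10 genes, 0 were at least 1.5-fold higher (1.27% of 14078 genes tested) and 1 was at least 1.5-fold lower (3.34%), so 1 of 10 passed either way against 4.61% of all genes. The median log2 ratio was 0.10 over the 10 genes and 0.01 over all genes tested. With 1 library a condition, a difference between mice, dissections or libraries and an effect of Dox cannot be told apart, and most of these ratios are small.

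**Figure D5:**
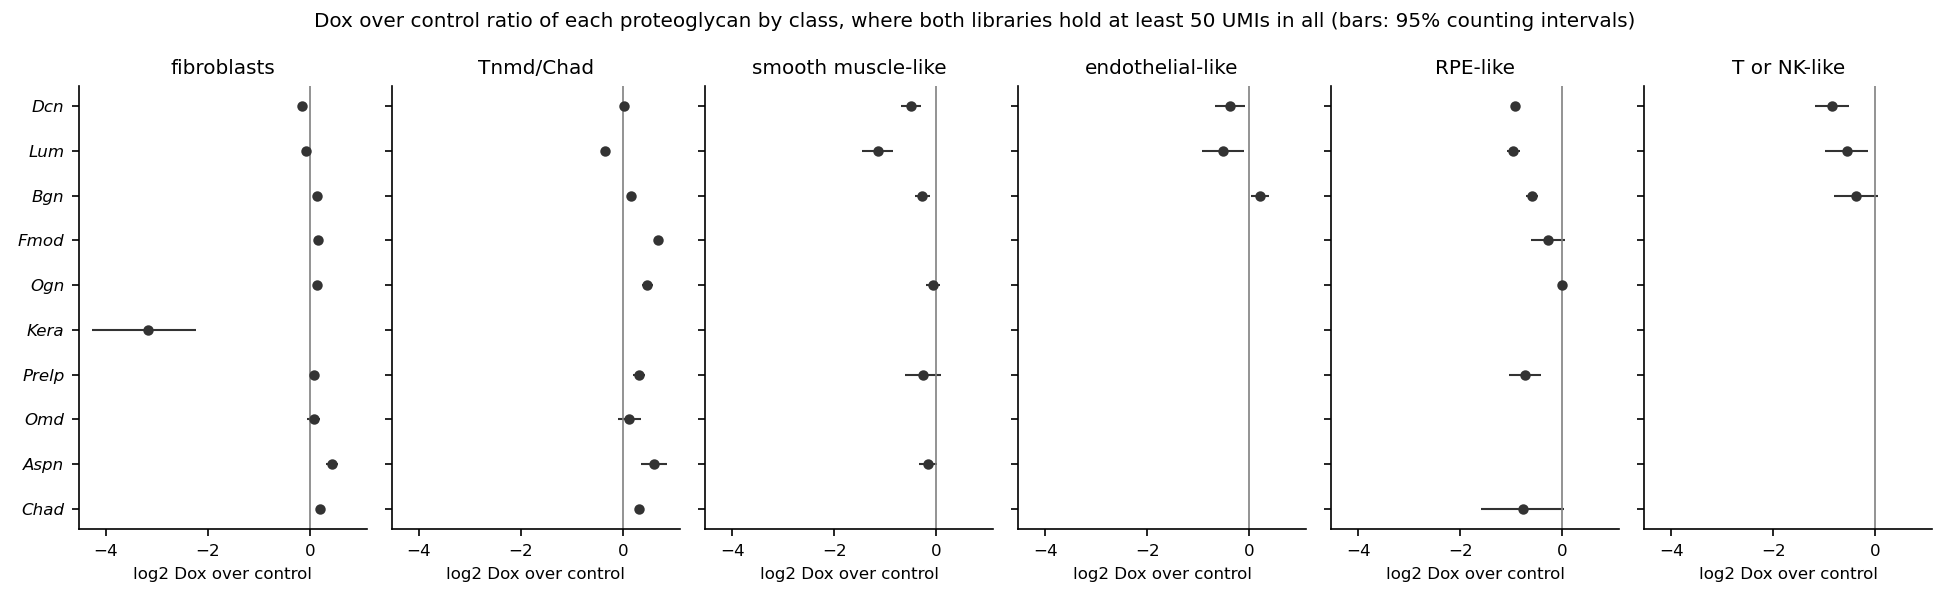
Log2 ratio of CPM, Dox over control, for the proteoglycan genes with at least 50 UMIs over both libraries in 6 cell classes, with 95% counting intervals. The vertical line marks equal levels. In fibroblasts all genes but Kera lie close to the line, and in RPE-like cells Dcn and Lum lie to the left (0.525-fold and 0.516-fold) while Ogn lies at 0.

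In the Tnmd/Chad cells 2 of 9 tested genes, Fmod (1.62-fold) and Aspn (1.52-fold), passed 1.5-fold, both upward, where 5.6% of all tested genes passed either way. The Fmod ratio leaned on few cells: the highest Dox cell reached 32413 Fmod CPM, and the 10 highest cells held 38.1% of the Dox and 23.9% of the control UMIs. Without the 10 highest cells of each library the log2 ratio of Fmod went from 0.69 to 0.43, and that of Aspn from 0.60 to 0.40, both under 1.5-fold. Thinning (of cells with at least 2000 UMIs) gave 0.44 and 0.25. Lum was 0.786-fold and Ogn 1.39-fold in Dox Tnmd/Chad cells. Aspn also passed in Myoc-high cells (1.71-fold), and Chad passed in Cxcl9/Cxcl10 cells downward (0.613-fold, from 179 and 100 UMIs). In Dcn-low cells Fmod was 40.6 and 11.7 CPM, with 70.3% and 61.8% of its UMIs in 10 cells.

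In RPE-like cells 5 of 7 tested genes were at least 1.5-fold lower in the Dox library and 0 were higher, where 6.18% of all tested genes passed either way. Dcn was 209 and 110 CPM (0.525-fold), Lum 63.5 and 32.8 CPM (0.516-fold), Bgn 60.5 and 40.3 CPM (0.666-fold), Prelp 8.95 and 5.39 CPM (0.602-fold) and Chad 1.48 and 0.874 CPM (0.589-fold). Chad rests on 32 and 24 UMIs, and its log2 interval (-1.59 to 0.04) includes 0. Ogn was 94.2 CPM in both, a log2 ratio of 0.00 (-0.08 to 0.08). The background of T or NK-like cells was also lower in Dox, with Dcn at 0.559-fold, Lum at 0.684-fold and Bgn at 0.775-fold, so 1 of 3 tested genes passed 1.5-fold where 10.1% of all tested genes did. In CPM, the RPE-like level of the 5 lower genes lay below that of T or NK-like cells in both libraries, but per cell only Chad was lower. The part of free RNA in the ratios was not tested. Bgn was just past 1.5-fold and dropped under it without the 441 shared barcodes (log2 -0.57) and with the mean of the cells' own CPM (-0.44), as did Prelp with thinned cells (-0.50).

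Other genes of the family were counted at low levels. Of 8 (Epyc, Optc, Nyx, Podn, Podnl1, Ecm2, Tsku and Chadl), 7 had enough UMIs in fibroblasts. Only Optc (opticin), at 1.28 and 0.734 CPM, passed 1.5-fold, where 4.61% of all tested genes did. Epyc (epiphycan), next to Kera on chromosome 10, was the highest at 37.4 and 42.2 CPM. It was low in Tnmd/Chad cells, at 5.88 and 10.4 CPM against 41.7 and 46.9 CPM in Myoc-low cells, where its class III relative Ogn was high. Ecm2, the neighbour of Aspn, was 86.2 and 94.4 CPM in smooth muscle-like cells, above its fibroblast level of 28.6 and 30.7 CPM. Optc was 11.4 and 12.9 CPM in smooth muscle-like cells.

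The partners of these genes also lay close together between the libraries in fibroblasts. Of 18 fibril partners 0 passed 1.5-fold, where 4.61% of all tested genes did. Among them 11 had a ratio above 0, with a median log2 ratio of 0.03 against 0.01 over all tested genes. Sparc (2124 and 2282 CPM), Col1a1 (637 and 649 CPM) and Col1a2 (614 and 627 CPM), the chains of type I collagen, had the highest levels. Thbs2 had the largest ratio (0.19) and Tgfb2 the smallest (-0.07). Of 22 enzymes of the side chains, only Chsy3, a chondroitin synthase, passed 1.5-fold, at 8.18 and 4.73 CPM (log2 -0.79). This count is near the 4.61% of all tested genes. Of the 22 enzymes 15 were above 0, with a median of 0.05. Chpf, which works with the chondroitin synthases, had the highest level (216 and 240 CPM), followed by Chst12 and Chst1, and B3gnt7 the largest ratio (0.50, from 44 and 52 UMIs). Of 8 tendon and cartilage type genes 0 passed (4.61% of all tested genes did), with 2 above 0 and a median of -0.03, from Scx (0.48) to Fibin (-0.17).

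Finally, the pattern of each gene over 26 cell groups (13 in each library) was compared with those of other genes by the correlation of log2(CPM + 10). Only other genes at 50 CPM or more in some group were used. This is a description, since groups of 1 library share its free RNA and gates on Dcn, Kera and Chad made some groups. The correlations of Dcn, Kera and Chad thus rest in part on the gates. Dcn was most like Serpinf1 (Pearson's r = 0.97), Lum most like Fbln1 (0.96) and Bgn most like Rcn3 (0.99). Fmod was most like Comp (0.99), the cartilage oligomeric matrix protein, and Omd and Chad were both most like Ccn5 (0.98 and 0.98). Prelp was most like Thbs2 (0.96), Aspn most like Inhba (0.91), Ogn most like Tgfb3 (0.90) and Kera, with very few cells, most like Egfl6 (0.97). Among themselves, Omd and Chad were closest (0.97), and then Dcn and Prelp (0.92). Chromosomal neighbours were alike to unequal degrees, with r = 0.87 between Dcn and Lum but 0.24 between Lum and Kera, 0.74 between Fmod and Prelp, 0.73 between Ogn and Aspn, 0.71 between Omd and Aspn and 0.66 between Ogn and Omd.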

How the data were processed

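Cells of dissociated mouse RPE, choroid and sclera were profiled with a 10x 5′ kit. The authors aligned reads to mm10 with Cell Ranger (4.0.0 in the file headers) and deposited UMI counts per gene and barcode, unnormalized. Kept barcodes had over 500 UMIs, 200 to 6000 genes, under 0.2 of UMIs from mitochondrial genes and a complexity above 0.8, after the study's methods. Cell types were gated on marker lists (at least 3 markers, a summed CPM and at least 5 marker UMIs, or 250 for RPE-like cells). Cells passing more than 1 of these gates (1052 and 334) were left out and no doublet caller was run, and cells passing no gate (1282 and 2135) entered no class. Fibroblast subtypes were assigned in the order Kera, Cxcl9/Cxcl10, Tnmd/Chad, Myoc.

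Counts were summed per library and class, with exact Poisson, conditional binomial and Clopper-Pearson intervals (95%). Genes with at least 50 UMIs over the groups compared were tested against a fold limit. Ratios for that limit had 0.5 counts added. All 10 proteoglycan genes were named by rule, and from each list of other genes the 3 highest and the largest and smallest ratio, beside some named after their values were seen. The genes, lists and gates were chosen with earlier results of these data known. The ratio code was tested on simulated data. Computing used scipy 1.17.1 and numpy 2.4.6 with pandas 2.3.3 under Python 3.11.15.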

Additional observations from a re-analysis of the deposited data

Results flagged for a closer look

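For 11 values the Dox over control ratio of a gene went the opposite way in a cell class and in all fibroblasts, with both intervals clear of 0 and at least 50 UMIs of the gene over both libraries. Kera-positive cells, of which Dox had 2, were not compared. With 1 library per condition none of these differences was tested. Dcn was 0.026 in Tnmd/Chad cells (log2) against -0.15 in fibroblasts, and was -0.01 and -0.02 with the mean of the cells' own CPM and with thinned cells. Bgn was -0.59 in RPE-like, -0.52 in melanocyte-like and -0.27 in smooth muscle-like cells, against 0.13 in fibroblasts. Prelp was -0.73 in RPE-like cells against 0.07. Fmod was -0.51 in Cxcl9/Cxcl10 cells and -0.20 in Myoc-low cells against 0.16 in fibroblasts. That fibroblast ratio leans on few cells, as 10 of them held 16.0% and 24.6% of the Fmod UMIs. In Dcn-low cells Fmod was -1.80, Bgn -0.12 and Dcn 0.051, and 70.3% and 61.8% of the Fmod UMIs there lay in 10 cells. Dcn-low cells and fibroblasts were both cut on Dcn itself, so nothing is read from its ratios there. Chad was -0.71 in Cxcl9/Cxcl10 cells against 0.19 in fibroblasts, where 10 cells held 10.5% and 17.0% of its UMIs.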

How the results depend on the processing

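No paired analysis was possible because each condition had 1 library and no test was run, so no library could be left out either. Dcn, which chose the fibroblasts, gave 70.2% and 67.5% of the summed UMIs in control and Dox, and its own log2 ratio was -0.15. The summed log2 ratio in fibroblasts (-0.091), which thus mostly follows Dcn, was negative under all 12 alternatives, none of which left Dcn out. It was -0.070 with a Dcn gate of 10 UMIs and 4000 CPM, -0.103 with fibroblasts gated by other markers, -0.078 with cells of 2 types kept, -0.096 as the mean of the cells' own CPM, -0.112 with thinned cells, -0.099 centred on the median of all genes and -0.081 with the subtypes weighted as in control. The background in T or NK-like cells (3.96% and 2.80%) was 4.98% and 4.25% with the stricter Dcn gate, 6.16% and 6.20% with the other markers, 8.86% and 6.45% with cells of 2 types kept, 3.19% and 2.48% as the cells' mean and 3.24% in control with thinned cells. It was 7.47% and 5.43% without Dcn, and 17.0% and 15.7% with T or NK-like cells that passed the Dcn gate counted too. The count of genes 2-fold higher in Myoc-high cells (1, Aspn) was 0 with the stricter Dcn gate, with cells of 2 types kept and without shared barcodes. The count 2-fold lower in Tnmd/Chad cells (0) was 1, Kera, with the cells' mean. Values of single genes moved by more than their counting interval in 72 of 429 cases for Dox over control and in 191 of 612 for subtypes, with 20 and 4 changes of sign. The weighting by control shares, the background without Dcn or with Dcn-gated T or NK-like cells, the Tnmd gate and the removal of the 10 highest or of Kera cells were chosen after seeing the data. Outside fibroblasts Kera, Aspn and Omd rest on few UMIs in most types.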
